A study of Bos taurus with 6 samples.

Results

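The expressed genes of cattle muscle that carry no gene symbol, and are known only by LOC and a number, were examined in the longissimus dorsi of 2 breeds. The 57 genes were chosen by their level: the gene name in the files begins with LOC and digits, and the gene FPKM averaged at least 5 over all 6 animals. FPKM counts sequenced fragments relative to the length of the transcript and the size of the library, so that levels can be compared between genes. The files hold 4072 such LOC names among 17986 genes, so that 1.40% of the LOC names reached this level, against 27.9% of the 13914 other genes (3878 genes). The level alone chose the members, and it is a description here, not a result. The 3 members closest to the limit had mean FPKM of 5.26, 5.09 and 5.08 (LOC100847700, LOC112447492 and LOC539009), and the 3 genes just outside it had 4.94, 4.93 and 4.81 (LOC100174924, LOC783185 and LOC616830).

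The animals were 3 Shandong black cattle, a composite breed with Japanese black, Luxi and Bohai black ancestry, and 3 Luxi cattle, a local yellow breed, all 18 months old, with 1 RNA-Seq library per animal and no treatment. The libraries rested on 14.1 to 14.6 gigabases of aligned sequence in Shandong black cattle and on 17.5 to 17.99 in Luxi cattle. Shandong black 2 and Luxi 1 stood apart, with 161263 and 175373 assembled transcripts against 121048 to 134905 in the other libraries. The 8 muscle markers were high in every library, with a summed FPKM of 42981 to 55107 in Shandong black cattle. They summed to 23483, 72093 and 63598 in Luxi 1 to 3, so Luxi 1 was the lowest of all libraries. Markers of blood, B and T cells were near 0. The adipocyte markers ADIPOQ, FABP4, PLIN1, LEP and CIDEC were lower in Luxi in all 5 cases, with a summed FPKM of 109 to 173 in Shandong black cattle and 2.04 to 17.3 in Luxi cattle, and 4 of them passed the test. The 5 fibroblast markers summed to 109 to 159 and 376 to 502 and the 3 endothelial markers to 14.5 to 15.1 and 19.1 to 57.7, in the same order. Luxi 1 held the highest of both sums. On log2(FPKM + 1) of all genes tested, it correlated at 0.878 with Luxi 2 and 0.894 with Luxi 3. Luxi 2 and Luxi 3 correlated at 0.947. The 3 nerve markers summed to 47.7 to 120 and 7.58 to 27.3. Of these 3, 2 averaged under 1 FPKM, so the nerve sum rests mainly on 1 gene, which did not pass the test. In bulk muscle, fewer cells of a type and less RNA per cell cannot be told apart, and the part of these cells in the results on the members was not tested. XIST, the RNA of the inactive X chromosome, was at 4.83 to 14.0 FPKM in the Shandong black animals and at 0 to 0.207 in the Luxi animals, so sex and breed cannot be told apart in these libraries. The authors obtained the 2 breeds from different suppliers, so source and breed cannot be told apart either.

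A LOC name is the placeholder that NCBI gives to a gene without an approved symbol, made from its gene number. Many such genes are predicted by computer from RNA and protein alignments. They include copies of known genes, processed copies without introns, long noncoding RNAs, pseudogenes, small RNAs that sit in the introns of other genes, and fragments of a larger gene that the annotation has not joined. A read from such a locus can be credited to the LOC gene, to a neighbour or to a newly assembled transcript, and these placements need not be the same in each animal.

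Of the 57 members, 49 were found by gene number in the table of RefSeq genes for ARS-UCD2.0, a later assembly. That table lists 33 of them as protein coding, 9 as long noncoding RNA, 3 as pseudogenes, and 1 each as transcribed pseudogene, ribosomal RNA, small nucleolar RNA and other noncoding RNA. The remaining 8 gene numbers were not matched. A symbol has since been given to 6 members: SMIM10L3 (LOC100140431), SURF1 (LOC100139115), which takes part in the assembly of cytochrome c oxidase, RTL8C (LOC783730), DDI2 (LOC515551), a protease of the ubiquitin system, the histone gene H2BC4 (LOC787269) and LUC7L2 (LOC516355), a splicing factor. These 6 had mean FPKM between 5.65 and 17.0, with log2 fold changes between -0.01 and 1.08, and none passed the test. A separate gene 9.53 kb from LOC783730 already carried the name RTL8C. Where not said otherwise, RTL8C here means LOC783730.

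In structure the members differed from the other genes of the same level. The annotation gives a single exon to 25 members (43.9%), against 70 of the 3878 other genes that reached 5 FPKM on average (1.81%). Their exons covered a median of 1143 bases, against 2696 bases. Among the 33 protein coding members, 17 had a single exon, as did all 3 pseudogenes, whereas 1 of the 9 long noncoding RNAs and none of the 8 unmatched genes had. For 11 members (19.3%), transcripts that carry the name held under 50% of the gene FPKM, and unnamed transcripts assembled over the exons held the rest, against 6.14% of the other genes. The median standard deviation within a breed, on the scale of log2(FPKM + 1), was 0.47 for the members and 0.33 for the other genes. These are descriptions, and no test was run on them.

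**Figure D1:**
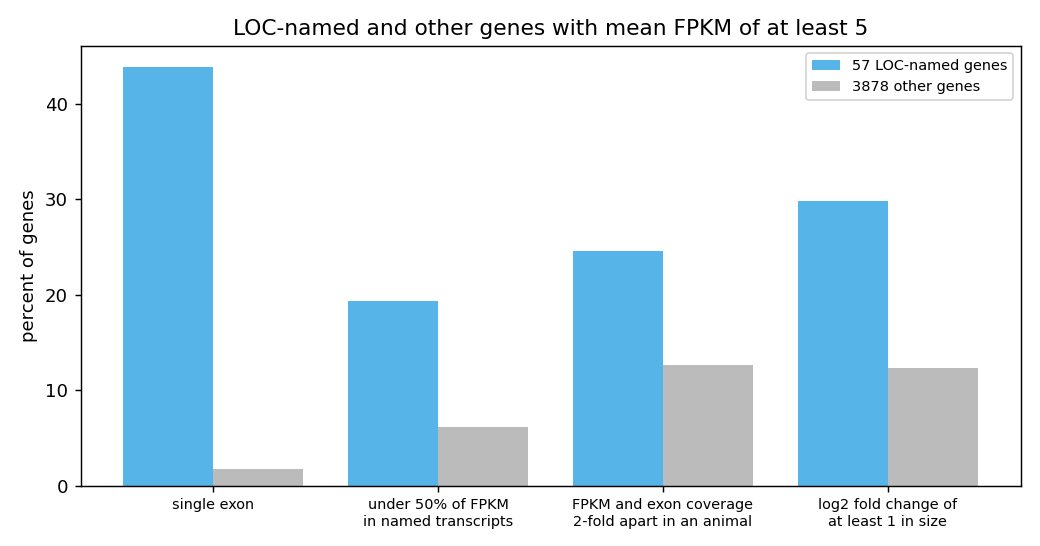
Percent of genes (vertical axis, from 0) with each of 4 properties. Blue bars are the 57 LOC-named genes, grey bars the 3878 other genes that averaged 5 FPKM or more. The first 2 properties are a single exon and under 50% of the FPKM in named transcripts. The others are FPKM + 1 and exon coverage + 1 a factor of 2 apart in an animal, and a log2 difference of 1 or more between breeds. The widest gap is in single-exon genes, 43.9% against 1.81%.

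The summed FPKM of the members ranged from 1136 to 2156 between animals, and their median level was 9.81. LOC616200 and LOC112445030 exceeded 100 FPKM on average. LOC616200 was the most abundant member, a protein coding gene with a single exon of 591 bases on chromosome 1 (92661084 to 92661674, plus strand, ARS-UCD1.2, as for all coordinates here), inside the span of NAALADL2 on the opposite strand. It had 164, 320 and 231 FPKM in Shandong black 1 to 3 and 218, 734 and 591 in Luxi 1 to 3. Luxi 2 and Luxi 3 were above every Shandong black animal, but Luxi 1 was not, and the log2 fold change of 0.99 (SE 0.53) had an adjusted p of 0.316. NAALADL2 itself stayed between 0.914 and 3.67 FPKM.

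LOC112445030, a protein coding gene of 8 exons on the X chromosome (19763136 to 19824315, plus strand), had 330, 17.8 and 678 FPKM in the Shandong black animals and 369, 364 and 398 in the Luxi animals. The 3 Luxi animals were close together and Shandong black 2 was far below the rest. The value of Shandong black 2 came from named transcripts alone. In the 5 other animals, transcripts without a name held most of the FPKM, and over the 6 animals the named transcripts held 3.18%. Counted on named transcripts only, the order was different, with 20.5, 17.8 and 17.96 FPKM in Shandong black cattle and 5.85, 0.960 and 5.51 in Luxi cattle.

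On chromosome 27, LOC112444681, a pseudogene with a single exon of 4133 bases (6217392 to 6221524, minus strand), and LOC112444653, annotated as ribosomal RNA with 153 bases (6222648 to 6222800), lay on the strand of RN18S1, the gene of the small ribosomal subunit RNA, within 3.14 kb of it. Ribosomal RNA genes are repeated in the genome, so reads at this place may come from other copies. LOC112444681 had 100.3, 64.0 and 64.3 FPKM in Shandong black cattle and 15.6, 222 and 134 in Luxi cattle. LOC112444653 was at 101 FPKM in Shandong black 2 and 94.0 in Luxi 1, and at 0.0549 or less in the 4 other animals. The 2 animals with a high value are the 2 libraries with the most assembled transcripts, 1 of each breed, and the part of this in the values was not tested. The log2 fold changes were 0.07 (SE 0.89) and -0.01 (SE 2.30), with adjusted p of 0.972 and 0.998.

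LOC104976804 (chromosome 29, 43609494 to 43616100, plus strand, 2 exons) and LOC104976281 (43628606 to 43633947, plus strand, 2 exons) followed FRMD8 in the files, on the same strand. Neither gene number was matched in the later table. LOC104976804 had 91.1, 123 and 95.9 FPKM in Shandong black cattle and 111, 67.4 and 28.5 in Luxi cattle, with overlapping breeds and a log2 fold change of -0.76 (SE 0.48, adjusted p = 0.387). LOC104976281 was much lower, at 0.548, 5.22 and 0.587 in Shandong black cattle and 4.53, 10.48 and 15.6 in Luxi cattle. The log2 fold change of LOC104976281 was 2.03 (SE 0.61, adjusted p = 0.121).

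Among the other members of the 10 most abundant, LOC783680 (chromosome 10, 103116413 to 103122698, 4 exons, 12.6 kb from B2M, the light chain of the class I histocompatibility molecules) had 51.7, 12.6 and 71.3 FPKM in Shandong black cattle and 89.1, 47.1 and 59.9 in Luxi cattle. LOC515042, a protein coding gene of 2 exons on chromosome 2 (130801971 to 130806189), had 26.4, 33.1 and 30.1 against 29.4, 41.8 and 44.9 FPKM. LOC787122, with 1 exon on chromosome 7 (103166460 to 103167281), was nearly level, at 36.9, 27.0 and 33.4 against 31.5, 31.4 and 32.6 FPKM. It was among the 8 members whose highest animal was under 2 times the lowest, with LOC515042, LOC100141266, LOC515358, SURF1, RTL8C, LOC104975749 and H2BC4. LOC112444473, a long noncoding RNA on chromosome 26 (7904551 to 7905229) in the span of PRKG1 on the opposite strand, had 46.2, 25.5 and 38.5 against 33.5, 18.6 and 29.9 FPKM. The breeds overlapped for these 4 genes, and their adjusted p were 0.482, 0.434, 0.973 and 0.476.

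**Figure D2:**
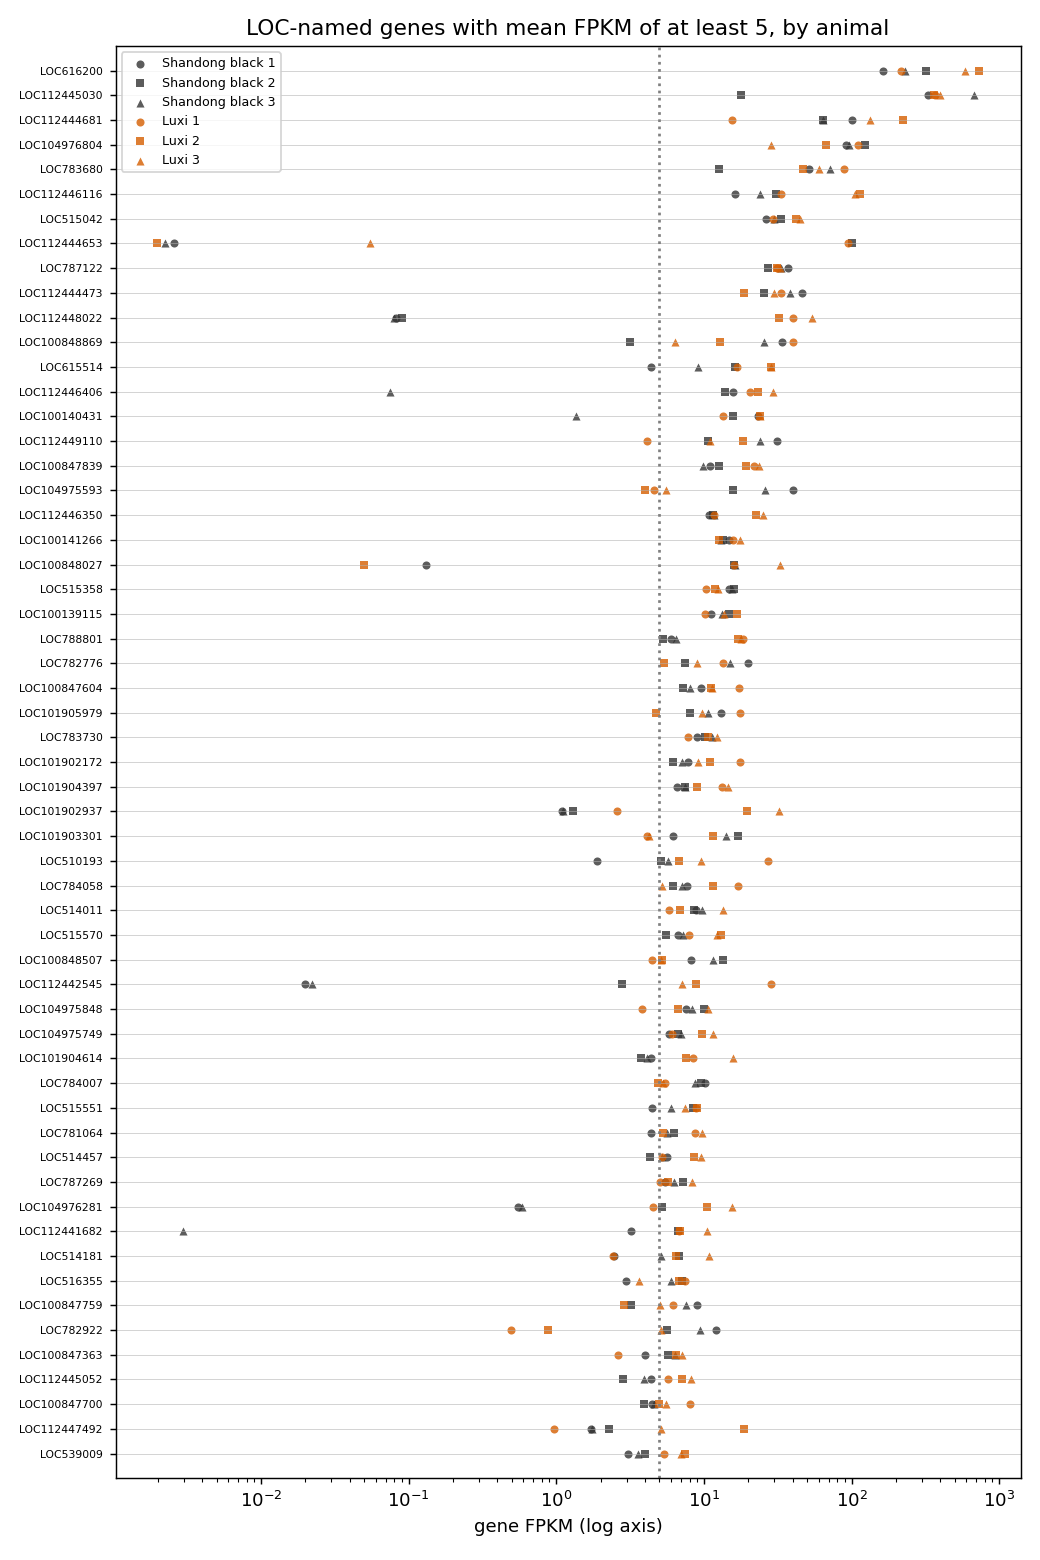
Gene FPKM (horizontal log axis) of each of the 57 genes, from the highest mean at the top to the lowest, in each animal (grey: Shandong black, orange: Luxi, with marker shape giving the animal number). In 8 genes the highest animal is under 2 times the lowest. At the other end, 9 genes have an animal under 1 FPKM and another at 5 or more, such as LOC112444653 at 0.0549 or less in 4 animals and at 94.0 and 101 in the others. The dotted line marks 5 FPKM.

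The comparison of the breeds asked which of these genes differ in level in the muscle of Luxi against Shandong black cattle. All 57 members entered the test of 9767 genes, and a call needed an adjusted p below 0.05 together with a fold change, on the log2 scale, of 1 or more in size. Of the 57 members, 3 were called (5.26%), against 2.58% of all genes tested (252 genes). Of these, 2 were higher in Luxi (3.51% of the members, 1.55% of all genes) and 1 was lower (1.75% of the members, 1.03% of all genes). With median-of-ratios size factors or TPM the split was 2 higher and 2 lower. At an unadjusted p under 0.05 there were 20 members (35.1%), against 24.1% of the 3878 other genes of that level. The 20 include members that reached a mean of 5 through 1 breed only, such as LOC112448022 and LOC104975593. Such members had to differ to some extent, so the higher share is not a result about LOC-named genes. The log2 fold change was above 0 in 38 members and below 0 in 19, a split near that of all genes tested, of which 62.6% were above 0. The median was 0.40 in the members, beside 0.13 over all genes tested. With size factors the median over all genes was 0.02.

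A member could reach a mean of 5 through 1 breed only. Both breed means were at least 5 in 41 members, while 12 passed only through Luxi and 4 only through Shandong black cattle. Those 16 members had to differ to some extent, and they hold 2 of the 3 calls. In the 41 others, 1 gene was called (LOC788801), a share close to the 2.58% of all genes tested. The median log2 fold change of these 41 was 0.29.

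LOC112448022 showed the widest difference among the members. This gene, with 5 exons on chromosome 9 (27990450 to 28014089, plus strand), had 0.0821, 0.0906 and 0.0797 FPKM in Shandong black 1 to 3 and 40.2, 32.3 and 53.8 in Luxi 1 to 3. All Luxi animals were far above all Shandong black animals. The means were 0.0841 ± 0.00572 and 42.1 ± 10.9 FPKM (SD, n = 3 each), and the log2 fold change was 5.28 (SE 0.21, adjusted p = 0.000234). Of its FPKM, 11.8% lay in named transcripts, which alone gave 1.10, 1.70 and 11.9 FPKM in the Luxi animals and the same low values in the Shandong black animals, with a log2 fold change of 1.95 and no call (adjusted p = 0.161). Requiring 80% of the bases of an assembled transcript on the exons gave 1.95 as well (adjusted p = 0.142). Coverage of the exons by every transcript on that strand, on the FPKM scale, was 1.02, 0.355 and 3.28 in Shandong black cattle and 14.2, 9.86 and 22.7 in Luxi cattle. The animals did not overlap on that measure either, and the log2 fold change was 2.80 (adjusted p = 0.0241).

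The neighbourhood of this gene held another member. LOC100848869 (28083540 to 28116203, plus strand, 7 exons) had 33.7, 3.16 and 25.7 FPKM in Shandong black cattle and 39.9, 12.8 and 6.41 in Luxi cattle, with overlapping breeds and a log2 fold change of 0.04 (adjusted p = 0.985). In the files, 5 LOC genes lie between TRDN and SMPDL3A, and both members are among them. TRDN encodes triadin, a protein of the junctional sarcoplasmic reticulum of muscle that takes part in calcium release. TRDN under its own name was at 0.0180 to 0.0744 FPKM. None of the 5 LOC numbers was matched in the later table, which lists CLVS2 and 1 other LOC gene between TRDN and SMPDL3A. Whether the members are exons of TRDN was not tested, since no sequence was compared.

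LOC788801, a protein coding gene with a single exon of 883 bases on chromosome 23 (34453682 to 34454564, minus strand), was the other gene higher in Luxi cattle. It had 5.99, 5.29 and 6.499 FPKM in Shandong black cattle and 18.5, 17.0 and 17.8 in Luxi cattle. The values were tight within each breed and did not overlap. The means were 5.92 ± 0.609 and 17.8 ± 0.753 FPKM (SD, n = 3 each), and the log2 fold change was 1.44 (SE 0.17, adjusted p = 0.0169). Named transcripts held 97.2% of its FPKM, and exon coverage gave 1.42.

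LOC104975593, a protein coding gene with a single exon of 868 bases on chromosome 22 (54062699 to 54063566, plus strand), was lower in Luxi cattle. It had 39.9, 15.8 and 25.8 FPKM in Shandong black cattle and 4.57, 4.01 and 5.51 in Luxi cattle. The Shandong black animals were spread, with the lowest well above every Luxi animal. The means were 27.2 ± 12.1 and 4.70 ± 0.760 FPKM (SD, n = 3 each), and the log2 fold change was -2.22 (SE 0.33, adjusted p = 0.0253). Its nearest gene with a symbol, TMEM158, lay 57.6 kb away and was at 0.307 FPKM or less in every animal. The sums of the adipocyte and nerve markers and XIST, given above, were also lower in the Luxi animals. Their part in the difference of LOC104975593 was not tested.

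Leaving out single animals changed the last 2 calls. LOC112448022 was called in all 6 such fits. LOC788801 was not called without Shandong black 1 (adjusted p = 0.0865) or without Shandong black 3 (adjusted p = 0.109), with log2 fold changes from 1.37 to 1.501 over the 6 fits. LOC104975593 was not called without Shandong black 1, Shandong black 3, Luxi 2 or Luxi 3, in turn (adjusted p = 0.0819, 0.119, 0.0765 and 0.0684), with log2 fold changes from -2.55 to -1.91.

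**Figure D3:**
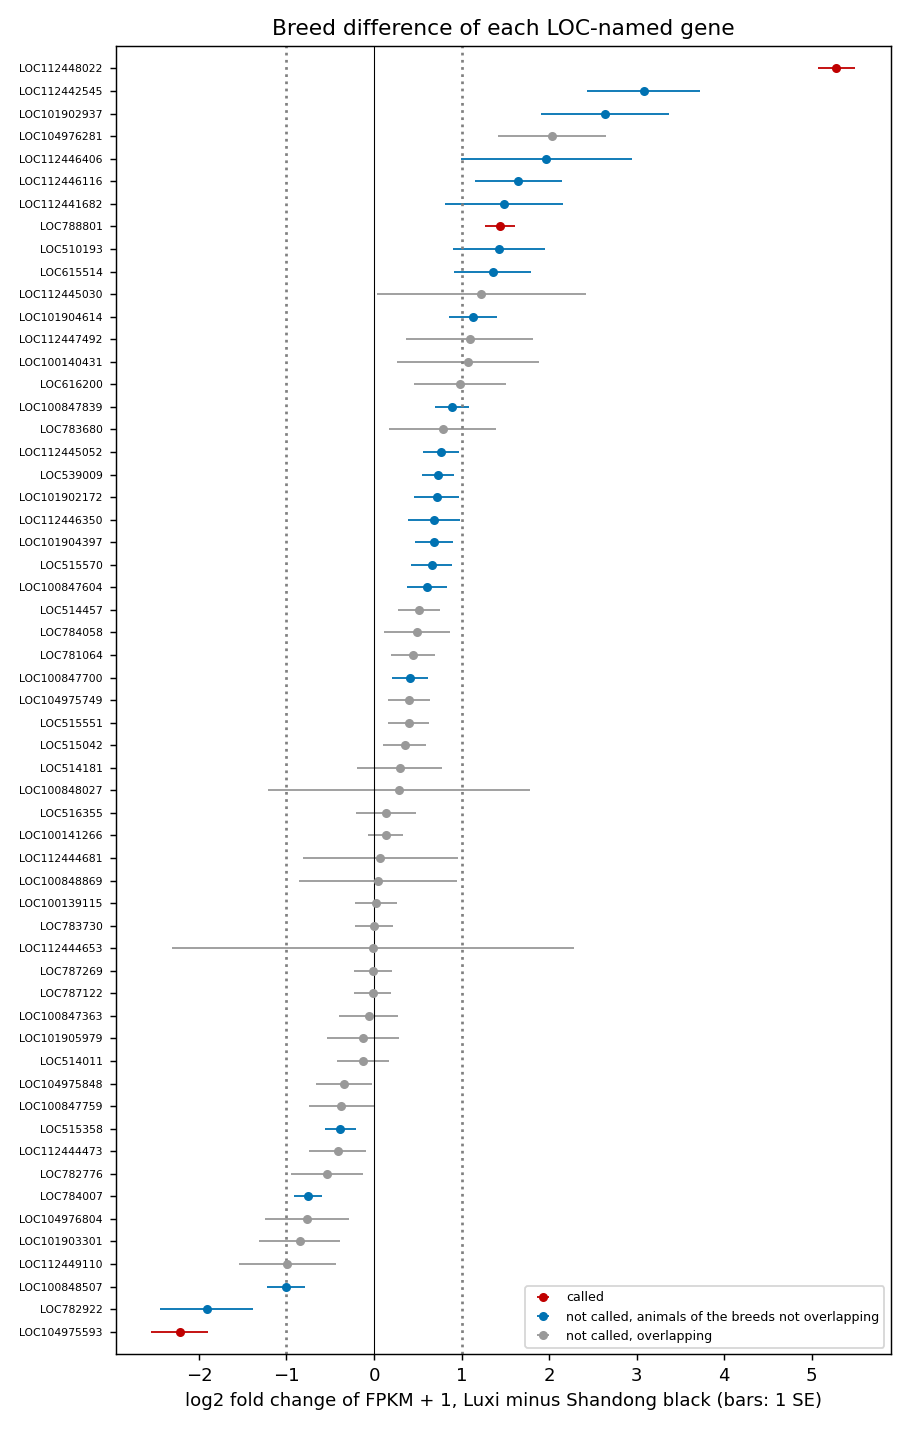
Log2 fold change of FPKM + 1 of each gene, Luxi minus Shandong black (horizontal axis, bars are 1 SE), ordered by size. The 3 called genes are red, at 5.28, 1.44 and -2.22, genes whose animals do not overlap between breeds without a call are blue, and the rest are grey. Dotted lines mark 1 and -1.

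The animals of the breeds did not overlap in 24 members (42.1%), against 29.2% of all genes tested. Luxi was higher in 19 (33.3%, background 20%) and lower in 5 (8.77%, background 9.14%). Of the 19, 9 belong to the 12 members that passed only through Luxi. In the 41 members with both breed means at 5 or more, 10 were higher in Luxi without overlap and 2 lower.

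Several uncalled members were separated between breeds with a wide difference. LOC112442545, a single exon of 7649 bases within the span of TTN and on its strand (chromosome 2, 18119594 to 18127242), shares no exonic base with TTN, the gene of the giant sarcomere protein titin. It had 0.0200, 2.80 and 0.0222 FPKM in Shandong black cattle and 28.6, 8.91 and 7.16 in Luxi cattle, with a log2 fold change of 3.08 (SE 0.65, adjusted p = 0.0545). TTN had between 381 and 880 FPKM, with a log2 fold change of -0.05. The exon coverage of LOC112442545 in Shandong black 1 was 3.01 rather than 0.0200.

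LOC101902937, a single exon of 417 bases on chromosome 10 (72046794 to 72047210, minus strand), had 1.10, 1.297 and 1.11 FPKM in Shandong black cattle and 2.58, 19.7 and 32.2 in Luxi cattle. Luxi 1 was close to the Shandong black animals and the other Luxi animals were not, and the log2 fold change was 2.64 (SE 0.73, adjusted p = 0.102). LOC112446406, a gene of 13 exons on chromosome 4 (76758600 to 76768540, minus strand), had 15.7, 13.9 and 0.0750 FPKM in Shandong black cattle and 20.7, 23.4 and 29.4 in Luxi cattle. The value of Shandong black 3 was far below the rest. The log2 fold change was 1.97 (SE 0.97, adjusted p = 0.286) over all animals and 0.68 without Shandong black 3. In the files this gene stands alone between ZMIZ2 and TMED4, and in the later table that interval holds OGDH, which encodes a subunit of the oxoglutarate dehydrogenase complex of the citric acid cycle, and 1 other LOC gene.

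Among the small RNAs, LOC112446116, a noncoding RNA of 274 bases within ATG16L1 and on its strand (chromosome 3, 112988386 to 112988659), had 16.2, 30.7 and 23.9 FPKM in Shandong black cattle and 33.1, 113 and 106 in Luxi cattle. Luxi 1 lay just above the highest Shandong black animal. The log2 fold change was 1.65 (SE 0.50, adjusted p = 0.122), while ATG16L1, an autophagy gene, had 0.07. LOC112441682, a small nucleolar RNA of 88 bases in an intron of HSPA8 (chromosome 15, 33680867 to 33680954, minus strand), had 3.20, 6.69 and 0.00299 FPKM in Shandong black cattle and 6.74, 6.92 and 10.6 in Luxi cattle. It had a log2 fold change of 1.48 (SE 0.67, adjusted p = 0.250), beside 0.30 for HSPA8, a constitutive heat shock protein at 257 to 437 FPKM. Standard RNA-Seq libraries recover such short RNAs poorly, and reads of the host transcript can cover them.

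Lower in Luxi without overlap and without a call were LOC782922, LOC100848507, LOC784007 and LOC515358. LOC782922, with 9 exons on chromosome 13 (43733418 to 43753878), had 12.1, 5.66 and 9.45 FPKM in Shandong black cattle and 0.491, 0.885 and 5.12 in Luxi cattle, with a log2 fold change of -1.91 (SE 0.53, adjusted p = 0.102). LOC515358, a single exon on the same chromosome (43896695 to 43897496), had 14.8, 15.9 and 15.4 against 10.3, 11.9 and 12.4 FPKM, a smaller difference of -0.38 on the log2 scale (adjusted p = 0.262). The nearest gene with a symbol to both was AKR1C4, of the aldo-keto reductase family, at 107 and 269.9 kb.

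LOC100848507, a long noncoding RNA on chromosome 18 (12965083 to 12968271, plus strand) that lies 280 bases from FBXO31 on the opposite strand, had 8.22, 13.5 and 11.53 FPKM in Shandong black cattle and 4.44, 5.24 and 5.14 in Luxi cattle. It had a log2 fold change of -1.004 (SE 0.22), with an adjusted p of 0.0578 that fell below the limit with size factors (0.0399), TPM (0.0458) and exon coverage (0.0438). LOC784007, with 6 exons on chromosome 3 (13041461 to 13064225), had 10.1, 9.61 and 8.72 against 5.42, 4.92 and 5.32 FPKM, tight in each breed. Its log2 fold change was -0.75 (SE 0.16, adjusted p = 0.0582), and -1.203 (adjusted p = 0.03998) on exon coverage.

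**Figure D4:**
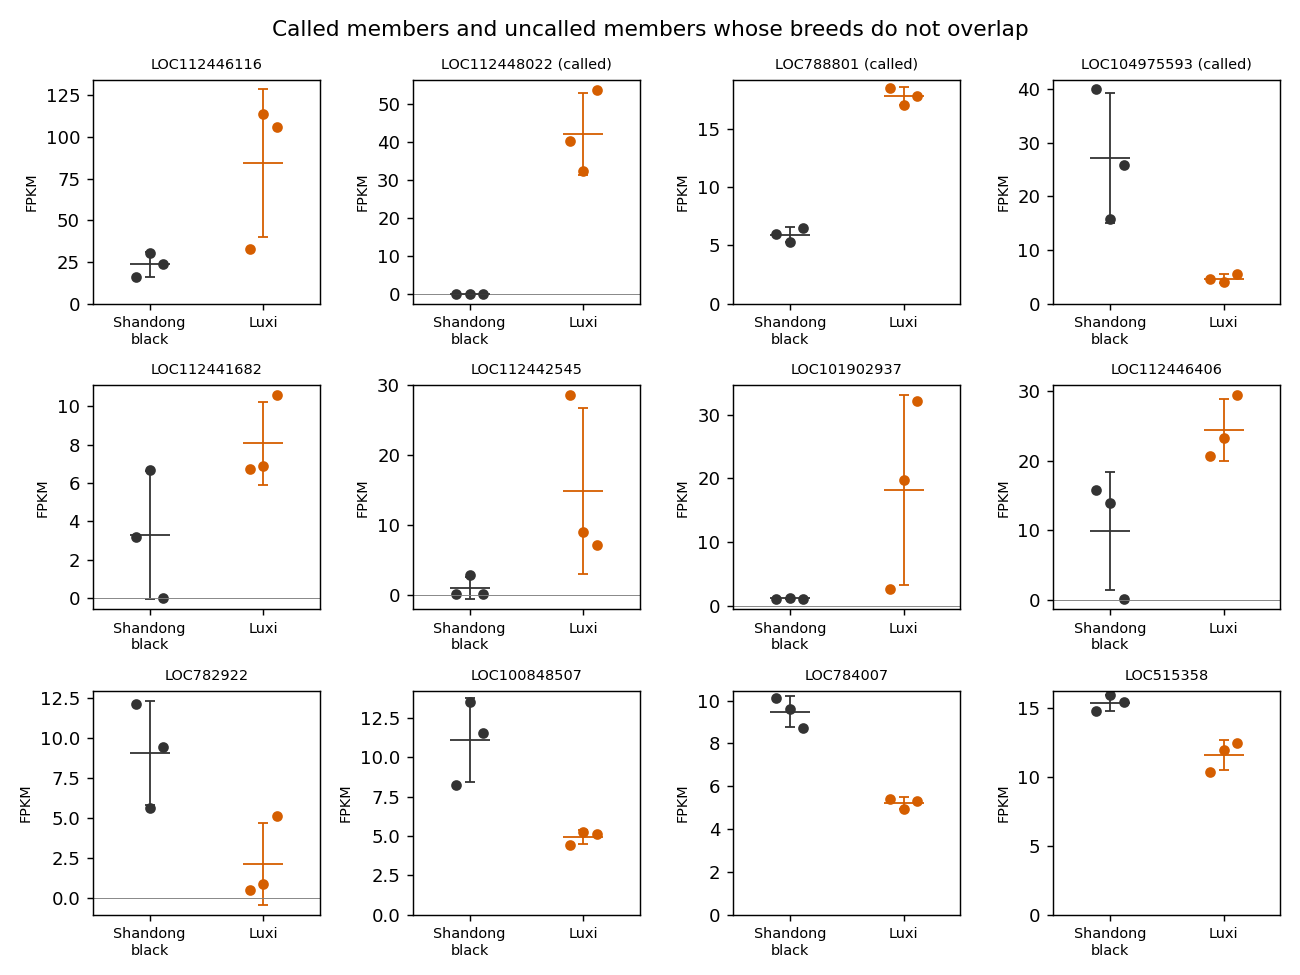
Gene FPKM (vertical axes, linear) in the 3 Shandong black (grey) and 3 Luxi (orange) animals for the 3 called genes and 9 uncalled genes whose animals do not overlap between breeds. Points are animals from 1 to 3, left to right, the wide bar is the mean and the error bar the SD. LOC788801 is at 5.92 ± 0.609 and 17.8 ± 0.753.

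By gene type, the 33 protein coding members had 23 log2 fold changes above 0 and a median of 0.41, with 2 calls. Over all genes tested, 62.6% were above 0, the median was 0.13 and 2.58% were called. The 9 long noncoding RNAs had 4 above 0, a median of -0.06 and no call (from -1.004 to 1.09). The 8 unmatched genes had 6 above 0, a median of 0.64 and 1 call. All 3 pseudogenes were between 0.07 and 0.51, among them LOC514457 on chromosome 29 at 5.64, 4.28 and 5.18 against 5.23, 8.62 and 9.52 FPKM. LOC782776, the transcribed pseudogene on chromosome 1, had 19.9, 7.45 and 14.97 against 13.5, 5.37 and 8.96 FPKM. LOC100847839, the most abundant long noncoding RNA after LOC112444473, overlaps OTUD4 on the opposite strand of chromosome 17 (13104315 to 13110164). It was steady in each breed, at 10.99, 12.6 and 9.93 FPKM in Shandong black cattle and 21.7, 19.3 and 23.7 in Luxi cattle, with a log2 fold change of 0.89 (SE 0.20, adjusted p = 0.0599), which is under the size asked for a call.

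On the X chromosome lay 3 members, the gene LOC112445030 above, RTL8C and LOC112445052. RTL8C (LOC783730) had 8.999, 10.1 and 11.4 FPKM in Shandong black cattle and 7.84, 10.7 and 12.2 in Luxi cattle, with a log2 fold change of -0.0035 (SE 0.22). The separate gene already named RTL8C, 9.53 kb away on the opposite strand, had 6.35, 10.2 and 9.77 against 3.22, 4.73 and 5.65 FPKM. Its log2 fold change was -0.82 (adjusted p = 0.125), so the level values of LOC783730 do not stand for that gene. LOC112445052 (23349505 to 23350269, a single exon) had 4.41, 2.83 and 3.92 against 5.75, 7.09 and 8.22 FPKM, higher in every Luxi animal, with a log2 fold change of 0.77 (SE 0.21, adjusted p = 0.0961). XIST differed between the breeds, as given above, and its part in these values was not tested.

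A low gene FPKM in a single animal did not always mean that the exons were uncovered. Each gene was also measured by the coverage of its exons by every transcript on its strand, named or not, put on the FPKM scale. Of the 342 values of the members, 9 had a coverage (plus 1) at least 4 times the FPKM (plus 1), and they fell in 7 genes (12.3% of the members, against 2.04% of the 3878 other genes). LOC112445030 in Shandong black 2 was at 17.8 FPKM and 333 in coverage, which put that animal above the other Shandong black animals at 207 and 325. LOC112446406 in Shandong black 3 was at 0.0750 FPKM and 16.4 in coverage, beside 16.5 and 17.7 in its breed, and the log2 fold change of that gene came down to 0.32 (adjusted p = 0.339). For SMIM10L3 in Shandong black 3 the values were 1.36 and 13.0, and for LOC783680 in Shandong black 2 they were 12.6 and 60.2. LOC104976281 in Shandong black 1 rose from 0.548 to 18.2, and its log2 fold change went from 2.03 to 0.58. The ribosomal RNA gene LOC112444653 had coverage of 51.5, 101 and 11.4 in Shandong black cattle and 94.0, 0.750 and 358 in Luxi cattle.

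The opposite also occurred. LOC112447492, a long noncoding RNA of 6 exons on chromosome 7, had 18.7 FPKM and a coverage of 3.67 in Luxi 2, beside 0.967 and 5.12 FPKM in the other Luxi animals and 1.72, 2.28 and 1.75 in Shandong black cattle. In 43 members both measures, each plus 1, were within a factor of 2 in every animal. All 3 called genes were called on exon coverage, and LOC100848507 and LOC784007 were called there in addition, against 3.14% of the 9266 genes tested on that measure. Of these 5 genes, 3 had reached 5 FPKM through 1 breed only.

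**Figure D5:**
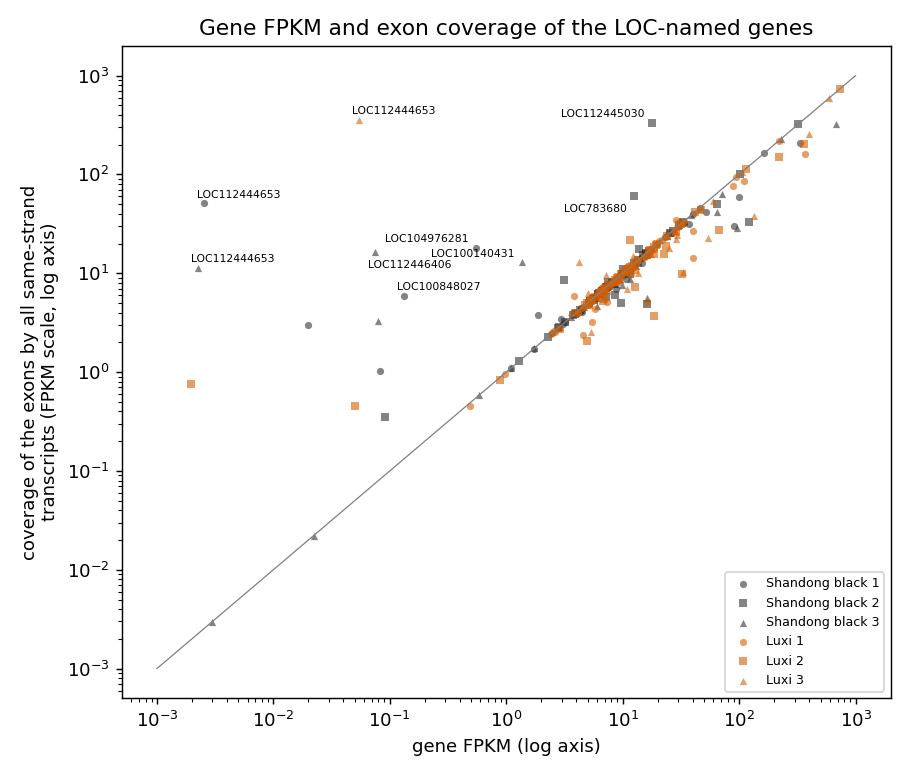
Gene FPKM (horizontal log axis) against coverage of the exons by all transcripts of the strand (vertical log axis, FPKM scale) for each of the 57 genes in each animal. Most points lie on the line of equality, and the 9 labelled points lie far above it, such as LOC112445030 at 17.8 FPKM and 333 in coverage.

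Without Shandong black 2 and Luxi 1, which hold the most assembled transcripts, 56 members were tested and 10 were called, 9 of them higher in Luxi, against 7.71% of the 9727 genes tested (5.07% higher, 2.64% lower). Of the 9, 4 had reached a mean of 5 only through Luxi, and the 1 lower gene only through Shandong black cattle, so these 5 had to differ to some extent. The 3 genes called on all animals were among them. The others were LOC616200 (1.75), LOC112446116 (2.42), LOC615514 (2.01), LOC112446350 (1.02), LOC101902937 (3.64), LOC112442545 (3.14) and LOC104976281 (3.14), with log2 fold changes in parentheses. In Shandong black 1, which this fit keeps, LOC112442545 and LOC104976281 had 0.0200 and 0.548 FPKM but 3.01 and 18.2 in exon coverage. On exon coverage in all animals their log2 fold changes were 2.64 and 0.58, without a call. LOC615514 lies next to GSTM1 among the glutathione S-transferase genes of chromosome 3, whose members are close copies, so its reads may be split between them. It had 4.38, 16.3 and 9.08 FPKM in Shandong black cattle and 16.9, 28.6 and 28.6 in Luxi cattle. With 2 animals a breed this fit rests on few values, and it was chosen after the data were seen.

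LOC530102, which is known today as COL6A6, a chain of the collagen VI of muscle, was followed as well, although it lay below the level asked of the members. It had a mean of 0.375 ± 0.149 FPKM in the Shandong black and 1.53 ± 0.675 in the Luxi animals (SD, n = 3 each), and a log2 fold change of 0.85 (adjusted p = 0.0961). The sums of the fibroblast and endothelial markers, given above, were also higher in the Luxi animals. Their part in the values of LOC530102 was not tested.

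Each value rests on 1 library per animal and 3 animals per breed, and the smallest p that an exact two-sided permutation test can give with these numbers is 0.1. The p-values given are those of the model fitted over all 9767 genes.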

How the data were processed

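RNA from the muscle of 6 animals was sequenced by the authors, aligned to ARS-UCD1.2 and assembled for each library with StringTie (version 1.3.3b per the file headers), guided by the NCBI annotation. For each transcript the authors deposited FPKM, TPM and coverage. Read counts were not used, which leaves out count tests and any counting error. The breed of a library was taken from its label. Gene FPKM was the sum over the transcripts that carry the gene's name and those unnamed, assembled ones that had 50% or more of their bases on its exons and strand. A transcript with no value in an animal counted as 0. Transcripts that lay in no gene held 21.9 to 30.8% of the FPKM of a library.

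Genes that averaged 1 FPKM or more in a breed were compared with limma 3.58.1 in R 4.3.3 (lmFit, eBayes with trend) on log2(FPKM + 1), without covariates, with Benjamini-Hochberg adjustment over all 9767 genes. The log2 fold change on this scale understates the change of low genes. The procedure was tested on simulated data of 9767 genes, 200 of them changed. It called 67% of the changed genes at a log2 change of 1.5 and 93.5% at 3. It also called 5 and 7 unchanged genes, in that order. The members, the gene lists and the rules were chosen with earlier results of these data known. Named genes were the 10 members with the highest mean, the called members, LOC530102, the 2 highest members of each gene type, and up to 5 uncalled members in each direction with the largest log2 fold change and no overlap between breeds. Other members are named for their neighbourhood, their current symbol or their exon coverage, and were chosen after their values were seen. Gene types and current symbols came from the RefSeq gene table of ARS-UCD2.0, matched by gene number. That table gives no descriptions, so protein families were not assigned. Coordinates are those of the files. Exon coverage, and the fit without Shandong black 2 and Luxi 1, were added after the data were seen. Nothing in the labels says how the animals were related.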

Additional observations from a re-analysis of the deposited data

How the results depend on the processing

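The 3 calls among the members depend on the animals. Leaving out each animal in turn gave 1 to 7 called members (1 to 6 higher in Luxi, 0 to 1 lower) and 3 to 600 called genes of all tested, the fewest without Shandong black 3 and the most without Luxi 1. No filter on FPKM left 0 members lower in Luxi and 63 genes in all. Size factors and TPM gave 2 members lower. Named transcripts only gave 1 member higher in Luxi and 163 genes in all, and asking for 80% of the bases also gave 1 member higher. Among the alternatives added after the data were seen, exon coverage called 5 members, 3 of them lower (3.14% of all genes), and leaving out Shandong black 2 and Luxi 1 called 10 members, 9 of them higher, and 750 genes in all. The causes of these changes were not tested. A replicate block gave 135 genes in all and the same counts of called members (2 higher, 1 lower). Nothing in the labels pairs the animals by replicate number. Deviations from the breed means correlated at 0.0886, 0.0885 and 0.0775 for animals 1, 2 and 3. Animals of unlike number were not compared in this way, so these values do not decide whether the numbers are a pairing.

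The log2 fold change of 19 of the 57 members, none of them called, changed sign in at least 1 fit, and 15 of these were under 0.5 in size. Among the members that do so are LOC112447492 (-0.69 on named transcripts only), LOC100848869 (down to -1.59), SURF1 (down to -0.14), LUC7L2 (down to -0.17), RTL8C (up to 0.16) and H2BC4 (up to 0.21). That of LOC112445030 was -2.15 on named transcripts only, -2.13 with 80% of the bases, -0.48 on exon coverage and -0.31 without Shandong black 2 and Luxi 1, and ranged from -0.33 to 2.26 over the fits that leave out an animal. LOC112444681 had -0.077 with size factors, -0.062 with TPM and -0.17 on exon coverage, and ranged from -0.67 to 1.199 over those fits. LOC104976804 had 1.22 on named transcripts only and 0.28 on exon coverage. LOC783680 had -0.19 without Shandong black 2 and Luxi 1. LOC112444653 had 0.16 with a pseudocount of 0.1 and 0.088 with TPM, and ranged from -2.19 to 2.21. LOC787122 had 0.12 on named transcripts only and 0.063 on exon coverage, and ranged from -0.14 to 0.080. Precision is limited by the 3 animals of each breed.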

Other observations

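Luxi 3 held the highest of the 6 values in 23 of the 57 members, Luxi 1 in 11, Luxi 2 in 9, and Shandong black 1, 2 and 3 in 8, 5 and 1. The same count was not made over all genes, so it is not shown to be particular to the members. Luxi 3 also had the largest size factor of the 6 libraries (1.12), and the part of this in the count was not tested. The lowest value was in Shandong black 1 for 15 members, in Luxi 1 for 14 and in Shandong black 2 for 12, against 2 for Luxi 3. LOC112449110, on chromosome 12 (86635900 to 86643899, minus strand) and 4.18 kb from ADPRHL1 on the same strand, had 31.3, 10.7 and 23.97 FPKM in Shandong black cattle and 4.14, 18.5 and 10.9 in Luxi cattle, of which named transcripts held 0.0381%. ADPRHL1 had 0.0879, 0.138 and 0.0908 FPKM in Shandong black cattle and 6.20, 27.1 and 24.7 in Luxi cattle (log2 fold change 3.97, adjusted p = 0.0177 by limma). RAC1, the nearest gene to SMIM10L3 with a symbol, had a low gene FPKM in Shandong black 3 alone, at 0.172 against 28.2 to 71.9 in the other animals. The gene FPKM of SMIM10L3 was also low in that animal, at 1.36. Its exon coverage there was 13.0, beside 23.2 and 15.8 in Shandong black 1 and 2. The exon coverage of RAC1 is not given here.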
